A study of Mus musculus with 4 samples.

Results

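The 46 genes described here repair DNA double-strand breaks and interstrand crosslinks, and they were taken from the count tables by gene symbol: homologous recombination, the Fanconi anaemia pathway, end joining and break signalling. All 46 were found among the 40213 symbols of the tables, with MRE11 listed as Mre11a, and all 46 passed the filter on low counts. Bulk RNA-seq was performed on CD24+ emergency progenitors (EPs, CD11c+CD117+ cells that Flt3L expands) sorted from the spleen. Each mouse received 10 μg Flt3L-Ig i.p. on day 0 and again on day 3, and the cells were sorted on day 9, at a stated mouse age of 7 to 10 weeks. WT libraries (n = 2) came from littermates with the genotype TopBP1 fl/fl, and TopBP1cKO libraries (n = 2) came from TopBP1 fl/fl mice that also carried CD11c-cre. Both groups thus share the floxed alleles and the Flt3L-Ig. Cre is driven by the promoter of CD11c, so that deletion is limited to cells that have expressed CD11c, and no Cre control without floxed alleles is part of the comparison. How many mice went into a library is not given in the sources used here. P values rest only on the spread between these libraries, with the spread of each gene moderated by that of all genes tested. The libraries held 14561583 and 15193831 counts (WT) and 15148032 and 15093476 counts (TopBP1cKO).

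Double-strand breaks are sensed by the MRN complex (MRE11, RAD50, NBN), which recruits the kinase ATM, and they are then sealed either by end joining, which needs no template, or by homologous recombination, which copies the sister chromatid and therefore operates in S and G2 phases. In homologous recombination, the ends are resected to single strands, and mediators such as BRCA2 then prepare these for strand invasion. The Fanconi pathway handles crosslinks at stalled replication forks: a core complex attaches ubiquitin to FANCD2 and FANCI, and nucleases then unhook the crosslink. TopBP1 is a scaffold of replication and of the ATR checkpoint kinase. Loss of DNA integrity was among the explanations for missing cDCs that the study considered. Its staining for γH2AX, a marker of DNA damage, did not differ significantly in bone marrow pre-DCs or clearly in cDC subsets. Pre-DC subsets trended towards less damage in TopBP1cKO mice. The study proposes that differentiation was impaired, rather than that damage or apoptosis rose. The values below are transcript levels of repair genes in EPs and do not measure damage.

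The targeted gene was examined first. Topbp1 had 1102 and 1143 counts in WT EPs, 773 in TopBP1cKO replicate 1 and 1279 in TopBP1cKO replicate 2. Replicate 2 was thus above both WT libraries, and replicate 1 below both (log2 fold change −0.20, SE 0.21, FDR 0.774), with values of 0.11 without replicate 1 and −0.60 without replicate 2. Which exons are floxed is not given in the sources used here, and a sum over the whole gene need not show a deletion of some exons. The second group is therefore named by its label. Genes of the sorted population were abundant in all 4 libraries: Itgax (CD11c) had 8776 to 10511 counts, Kit (CD117) 5916 to 7181 and Cd24a 11686 to 14001. Over the 10 genes on the list of EP and cDC1 identity, the median log2 fold change was −0.17, and none passed FDR < 0.05. A negative value was found for 9 of the 10, as for 6048 of all 12393 genes tested. Both libraries labelled TopBP1cKO were below both WT libraries for 6 of the 10 (background 20.8%). Kit stood at −0.30 (SE 0.12, FDR 0.436). Irf8, a transcription factor that cDC1s need, stood at −0.18, and Clec9a, a receptor on these cells, at −0.19. Without TopBP1cKO replicate 2 the values were −0.021 for Irf8 and −0.18 for Clec9a.

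Promoter sequences are shown for a few of the genes, because genes that are induced at the start of S phase often carry sites for E2F factors near their start. RefSeq promoter windows (GRCm38.p6, 250 bases before and 50 after the start) were matched for 37 of the 46 genes. The 9 genes without an entry were Nbn, Xrcc2, Rad50, Rad54b, Fancd2, Prkdc, Rad51d, Exo1 and Rbbp8. The E2F motif was searched on both strands as TTTCCCGC, TTTCGCGC, TTTGCCGC or TTTGGCGC, counted as 1 motif. It occurred in 7 of the 37 genes (18.9%), compared with 4.80% of the 9646 tested genes with an entry and 2.26% of all 32851 windows. The 7 genes were Brca2, Bard1, Rad51c, Fancg, Chek2, Mdc1 and Xrcc6. TTTGAA, the core of the cell cycle homology region (CHR), occurred in 5 of the 37 (13.5%, against 15.1% of tested genes and 17.9% of windows), and CCAAT in 22 (59.5%, against 43.3% and 37.4%). No E2F match overlapped a match to either of the other motifs in these windows. The 5 windows below run 5′ to 3′ on the strand of the gene, from 250 bases before the start to 30 after it, with the E2F match in capitals. They show the recombination genes with a match, an end joining gene with a match (Xrcc6) and Polq, which has none.
Brca2: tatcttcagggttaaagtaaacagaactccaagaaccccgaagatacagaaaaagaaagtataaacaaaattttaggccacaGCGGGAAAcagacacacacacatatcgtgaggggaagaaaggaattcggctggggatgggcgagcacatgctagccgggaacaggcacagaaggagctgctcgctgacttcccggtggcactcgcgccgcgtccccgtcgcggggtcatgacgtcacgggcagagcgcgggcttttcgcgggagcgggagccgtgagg
Bard1: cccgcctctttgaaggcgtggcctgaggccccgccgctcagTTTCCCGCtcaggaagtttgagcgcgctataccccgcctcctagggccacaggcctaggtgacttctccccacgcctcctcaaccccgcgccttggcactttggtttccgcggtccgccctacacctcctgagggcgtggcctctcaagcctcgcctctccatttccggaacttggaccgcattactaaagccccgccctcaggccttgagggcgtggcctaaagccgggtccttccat
Rad51c: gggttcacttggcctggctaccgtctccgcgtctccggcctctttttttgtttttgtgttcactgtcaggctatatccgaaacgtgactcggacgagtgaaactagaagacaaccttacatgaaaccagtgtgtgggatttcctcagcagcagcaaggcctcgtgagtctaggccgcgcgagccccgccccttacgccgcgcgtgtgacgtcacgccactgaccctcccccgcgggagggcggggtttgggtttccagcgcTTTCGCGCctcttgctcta
Polq: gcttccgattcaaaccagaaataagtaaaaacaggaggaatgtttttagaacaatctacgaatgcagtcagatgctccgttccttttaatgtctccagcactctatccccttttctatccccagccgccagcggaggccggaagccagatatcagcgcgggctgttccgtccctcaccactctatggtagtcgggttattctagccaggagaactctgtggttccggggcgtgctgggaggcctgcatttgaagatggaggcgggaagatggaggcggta
Xrcc6: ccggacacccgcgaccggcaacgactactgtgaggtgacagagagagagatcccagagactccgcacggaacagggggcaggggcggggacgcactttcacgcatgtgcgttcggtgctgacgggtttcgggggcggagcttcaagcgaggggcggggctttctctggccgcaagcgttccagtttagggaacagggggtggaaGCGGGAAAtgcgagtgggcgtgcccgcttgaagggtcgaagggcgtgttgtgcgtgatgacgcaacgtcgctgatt
They lie at chr5:150522371-150522650 (Brca2, plus strand), chr1:71102943-71103222 (Bard1, minus strand), chr11:87404477-87404756 (Rad51c, minus strand), chr16:37011536-37011815 (Polq, plus strand) and chr15:82016119-82016398 (Xrcc6, plus strand). Counting from 1 at the start and from −1 before it, the match begins at −168 in Brca2, at −209 in Bard1, at 12 in Rad51c and at −46 in Xrcc6. Rad51c has a second RefSeq window, at chr11:87404905-87405204 (minus strand), whose match begins at −5. A gene with more than 1 window was counted where any of them held a match. The window of Polq, the gene with the largest fold change when all libraries are used, holds none of the 4 spellings but has 2 CHR matches. A match is a string of letters in these windows and was not tested as a binding site.

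Most recombination mediators, the ID2 genes of the Fanconi pathway and Polq had more counts in both libraries labelled TopBP1cKO than in either WT library. Classical end joining genes went both ways. Its ligation genes (Lig4, Xrcc4 and Nhej1) had log2 fold changes of −0.02 to −0.32, or −0.039 to −0.021 without TopBP1cKO replicate 2. Prkdc and Xrcc6 had values of 0.40 and 0.37, or 0.15 and 0.21 without TopBP1cKO replicate 2. Xrcc5, with only 2 to 18 counts per library, had 1.17, or 1.45 without that library. No single gene of the 46 passed FDR < 0.05 in the quasi-likelihood test of edgeR, where 0.105% of the 12393 genes tested did. The count was also 0 with limma-voom (background 0.105%), 4 with the Wald test of DESeq2 (background 1.11%) and 4 with a likelihood ratio test (edgeR, background 1.89%), with Blm, Polq and Rad54l in both. With a replicate block it was 13 (background 4.07%), although replicate numbers did not pair the libraries. At an unadjusted P value below 0.05, 15 of the 46 were higher (32.6%, background 6.95%) and 0 were lower (background 3.77%). The 15 were Brca1, Brca2, Palb2, Bard1, Rad51c, Xrcc2, Rad54l, Rad54b, Exo1, Blm, Fancm, Fancd2, Fanci, Brip1 and Polq, with log2 fold changes from 0.70 to 1.89 and FDRs from 0.307 to 0.443. A fold change above 2 was found in 13 genes, the low-count Xrcc5 among them, against 3.53% of all genes. The median log2 fold change was 0.38 over the 46 genes and 0.01 over all genes tested. After scaling to library size, both libraries labelled TopBP1cKO were above both WT libraries in 28 of the 46 genes (60.9%, background 22.8%) and below both in 2, Rad51d and Rnf8 (background 20.8%).

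Much of this came from a single library. TopBP1cKO replicate 2 had the highest CPM (counts scaled to library size by TMM) of the 4 libraries in 33 of the 46 genes (background 34.8%), and in all 15 genes with an unadjusted P value below 0.05. In those 15 genes, replicate 2 was 2.11- to 6.01-fold above the WT mean, and replicate 1 was 1.15- to 1.92-fold above it. Replicate 1 was above both WT libraries in 32 of the 46 (background 37.0%). Without replicate 2 the median log2 fold change of the 46 genes was 0.16, and 6 genes (Brca2, Rad51c, Xrcc2, Rad54l, Blm and Polq) were higher at an unadjusted P value below 0.05 (background 6.08%), with none of the 46 past FDR < 0.05 (background 1.74%). Without replicate 1 the median was 0.61 and 27 genes passed FDR < 0.05, 20.5% of all genes passing as well. Each of these fits assumes that the lone library varies like the WT pair. The replication and mitosis genes, which are not among the 46, were highest in the same library: the summed CPM of 28 DNA replication genes were 633 and 642 in the WT libraries, 940 in replicate 1 and 2086 in replicate 2, and those of 20 mitosis genes were 671, 622, 813 and 2255. Mki67 is the gene of the proliferation marker Ki-67 and was the most abundant of the mitosis list by CPM. It had 3063 and 3052 counts in WT EPs, 3861 in replicate 1 and 12144 in replicate 2 (log2 fold change 1.31, and 0.27 without replicate 2). Top2a stood at a log2 fold change of 1.27, Bub1 at 1.66 and Birc5 at 1.26, and of the replication list Mcm6 stood at 1.25, Pcna at 0.87, Mcm7 at 1.32 and Rfc4 at 1.60. Without replicate 2 these 7 values lay between 0.30 and 1.00. The share of cycling cells and the RNA per cell cannot be told apart in bulk samples, and the part of cycling in the repair gene values was not tested.

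**Figure D1:**
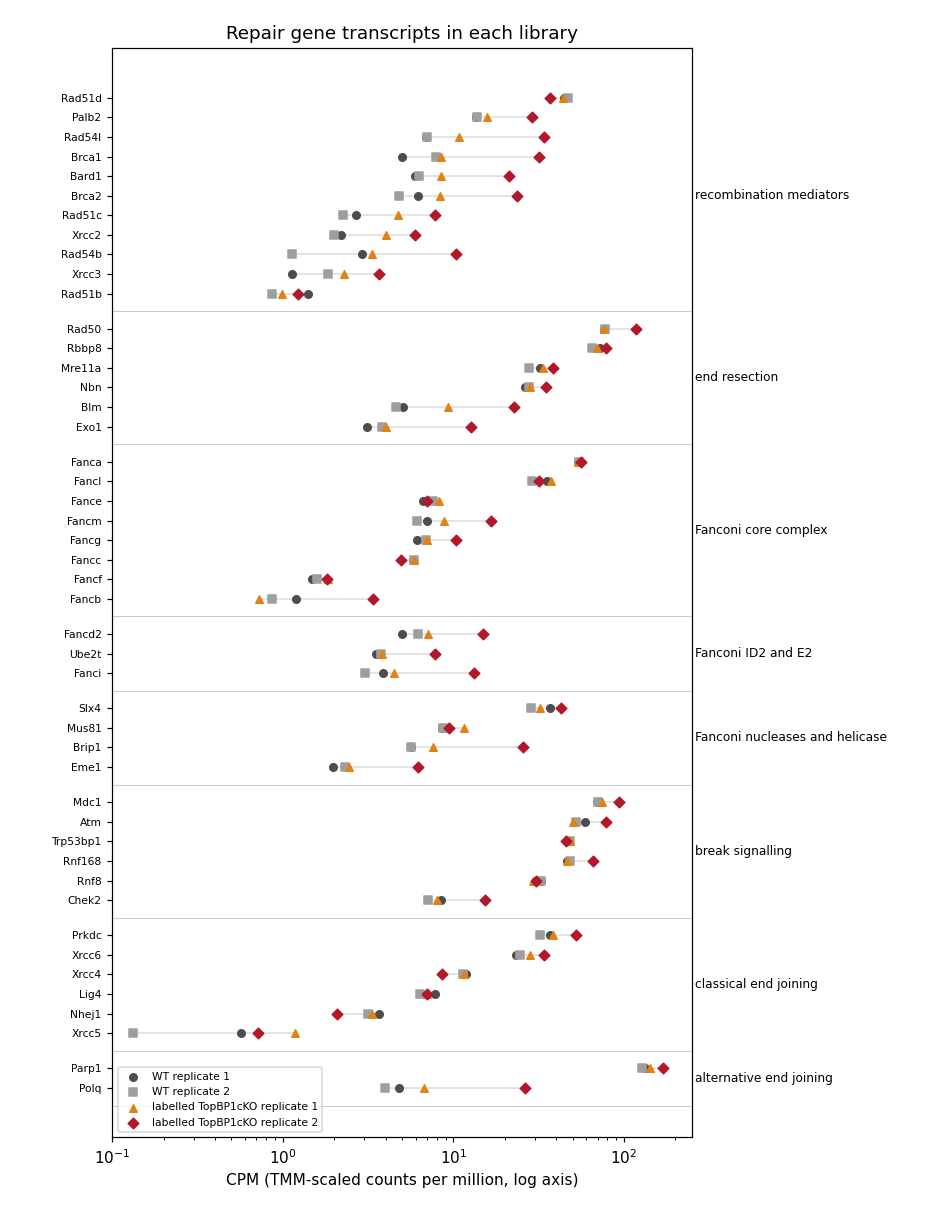
CPM of each of the 46 genes (log axis) in the 4 libraries, grouped by role, with WT in grey and the libraries labelled TopBP1cKO in orange (replicate 1) and red (replicate 2). The red point is the rightmost for 33 genes, among them Brca1, Blm, Brip1 and Polq but also Fancb, Eme1, Ube2t and Chek2, while the 4 libraries lie close together for Fanca, Trp53bp1, Rnf8 and Lig4.

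Of the 11 mediators of recombination, 9 had both libraries labelled TopBP1cKO above both WT libraries (background 22.8%), 8 were higher at an unadjusted P value below 0.05 (background 6.95%), and the median log2 fold change was 1.25 (0.57 without replicate 2). BRCA1 and BARD1 form a ubiquitin ligase that promotes resection and recruits PALB2 and BRCA2. Brca1 had 71 and 120 counts in WT EPs and 128 and 493 in the libraries labelled TopBP1cKO, or 6.48 ± 2.07 and 20.1 ± 16.6 CPM (SD, n = 2). Replicate 1 stood just above the higher WT library, at 8.40 against 7.94 CPM, and the difference (log2 fold change 1.61, SE 0.55, FDR 0.371) shrank to 0.36 without replicate 2. Its partner Bard1 had 84 and 95 counts against 128 and 326 (log2 fold change 1.25, SE 0.40, FDR 0.351; 0.44 without replicate 2), with no overlap between groups. Brca2, the central mediator at the resected end, had 88 and 73 counts in WT EPs and 127 and 365 in the libraries labelled TopBP1cKO (log2 fold change 1.51, SE 0.45, FDR 0.346). Without replicate 2 the value was 0.58. Palb2, the bridge between BRCA1 and BRCA2, differed less, with 193 and 209 counts against 241 and 449 (log2 fold change 0.70, SE 0.28, FDR 0.436; 0.19 without replicate 2).

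The products of the paralog genes Rad51b, Rad51c, Rad51d, Xrcc2 and Xrcc3 form complexes that assist strand invasion. Rad51c, Xrcc2 and Xrcc3 had positive log2 fold changes, and those of Rad51d and Rad51b were small and negative. Rad51c had 38 and 34 counts in WT EPs and 72 and 120 in the libraries labelled TopBP1cKO (log2 fold change 1.30, SE 0.33, FDR 0.307). Xrcc2 was similar, with 31 and 30 counts against 61 and 92 (log2 fold change 1.20, SE 0.33, FDR 0.315). In both genes the lower library labelled TopBP1cKO was well above the higher WT library, and the log2 fold change was 0.89 for each without replicate 2. Xrcc3 had 16 and 28 counts against 35 and 57 (log2 fold change 0.94, SE 0.41, FDR 0.479), and its value was 0.57 without replicate 2. Rad51d, the most abundant gene of this role, had 631 and 713 counts against 670 and 568 (log2 fold change −0.18, SE 0.14, FDR 0.686; −0.069 without replicate 2). Rad51b was near the lower end of detection, with 13 to 20 counts in every library and groups that overlapped (log2 fold change −0.03, SE 0.44). RAD54 proteins remodel DNA during strand invasion. Rad54l had 98 and 106 counts in WT EPs, 164 in replicate 1 and 526 in replicate 2 (log2 fold change 1.67, SE 0.47, FDR 0.336; 0.61 without replicate 2), and Rad54b had 41, 17, 51 and 160 in the same order (log2 fold change 1.71, SE 0.59, FDR 0.377; 0.70 without replicate 2 and 2.47 without WT replicate 1). Rad54b thus varied more than 2-fold between the WT libraries themselves, at 2.90 and 1.12 CPM.

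Of the genes that start resection, Rbbp8, which encodes CtIP, had 1018 and 987 counts against 1056 and 1208 (log2 fold change 0.10, SE 0.13, FDR 0.816). Mre11a and Nbn had log2 fold changes of 0.26 (SE 0.15) and 0.22 (SE 0.16), and replicate 2 was the highest library for all 3. Without replicate 2 the values were 0.0063 for Rbbp8, 0.16 for Mre11a and 0.056 for Nbn. Rad50, the most abundant gene of this role by CPM, had 1077 and 1166 counts in WT EPs, 1157 in replicate 1 and 1807 in replicate 2. Its difference (log2 fold change 0.33, SE 0.20, FDR 0.593) turned to −0.021 without replicate 2. Blm and Exo1 act in long-range resection, and neither passed FDR < 0.05. Blm, a RecQ helicase, had 72 and 70 counts in WT EPs and 141 and 349 in the libraries labelled TopBP1cKO. It had the smallest P value of the 46 genes (log2 fold change 1.69, SE 0.40, FDR 0.307), and the value was 0.90 (FDR 0.0629) without replicate 2 and 2.18 without replicate 1. Exo1, a 5′ to 3′ exonuclease, had 44 and 58 counts against 61 and 196 (log2 fold change 1.23, SE 0.49, FDR 0.443), and 0.19 without replicate 2.

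Across the 15 Fanconi genes, 4 were higher at an unadjusted P value below 0.05 (background 6.95%) and the median log2 fold change was 0.41. Without replicate 2 there were 0 such genes (background 6.08%) and the median was 0.20, and without replicate 1 there were 9 (background 16.6%) and it was 0.66. The 8 core complex genes had a median of 0.16. Fanca, the most abundant of them by CPM, was nearly constant at 761 and 819 counts in WT EPs and 823 and 867 in the libraries labelled TopBP1cKO (log2 fold change 0.03, SE 0.12, FDR 0.961). Fancl, the ubiquitin ligase subunit, had 502 and 437 counts against 566 and 489 (log2 fold change 0.10, SE 0.16), and Fancc, Fance and Fancf lay between −0.11 and 0.23. Fancg stood at 0.41 (SE 0.27, FDR 0.623), and at 0.084 without replicate 2. Fancm, the translocase that anchors the complex on DNA, had 99 and 93 counts against 134 and 258 (log2 fold change 0.94, SE 0.32, FDR 0.364; 0.41 without replicate 2). Fancb had 17 and 13 counts in WT EPs, 11 in replicate 1 and 52 in replicate 2. Its value of 0.91 (SE 0.64) therefore became −0.45 without replicate 2.

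The core complex modifies FANCD2 and FANCI, and neither gene passed FDR < 0.05. Fancd2 had 71 and 94 counts in WT EPs and 108 and 230 in the libraries labelled TopBP1cKO (log2 fold change 0.95, SE 0.36, FDR 0.406). Fanci, its partner in the ID2 clamp, had 55 and 46 counts against 68 and 203 (log2 fold change 1.31, SE 0.47, FDR 0.389). Without replicate 2 these were 0.32 and 0.35. Ube2t, the ubiquitin-conjugating enzyme of the pathway, had 50 and 57 counts against 58 and 121 (log2 fold change 0.65, SE 0.37, FDR 0.580; 0.049 without replicate 2), with replicate 1 just above the higher WT library (3.81 and 3.77 CPM). Downstream, the helicase gene Brip1 had 80 and 85 counts against 115 and 397 (log2 fold change 1.54, SE 0.50, FDR 0.353; 0.40 without replicate 2). Among the genes of the nucleases, Eme1 had 28 and 35 counts against 37 and 96 (log2 fold change 0.96, SE 0.45, FDR 0.503), its partner Mus81 had 122 and 132 against 175 and 146 (0.27, SE 0.21), and the scaffold Slx4 had 520 and 430 against 491 and 658 (0.20, SE 0.19). Mus81 was the one of these with replicate 1 above replicate 2, and without replicate 2 the order of the pair turned, at 0.16 for Eme1 and 0.39 for Mus81.

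The 6 break signalling genes had log2 fold changes with a median of 0.22, −0.01 without replicate 2 and 0.44 without replicate 1. None had an unadjusted P value below 0.05 with all libraries (background 6.95% higher and 3.77% lower), and 4 of them (Atm, Chek2, Mdc1 and Rnf168) passed FDR < 0.05 without replicate 1 (background 20.5%). ATM is the kinase that phosphorylates H2AX around a break, and MDC1 binds the mark. Atm had 841 and 787 counts in WT EPs, 761 in replicate 1 and 1206 in replicate 2 (log2 fold change 0.20, SE 0.21, FDR 0.772; −0.17 without replicate 2). Mdc1, the most abundant gene of this role by CPM, had 984 and 1064 counts against 1126 and 1437 (log2 fold change 0.25, SE 0.14, FDR 0.581). Its groups did not overlap, and the value was 0.071 without replicate 2. Chek2, an effector kinase downstream of ATM, had the smallest P value of the role, with 119 and 107 counts against 122 and 238 (log2 fold change 0.59, SE 0.32, FDR 0.559; 0.041 without replicate 2). Replicate 1 lay between the WT libraries in CPM. RNF8 and RNF168 are ubiquitin ligases that recruit 53BP1, the factor that protects ends from resection. Trp53bp1 had 667 and 731 counts against 737 and 710, with the groups overlapping (log2 fold change −0.02, SE 0.13, FDR 0.974). Rnf8 stood at −0.13 (SE 0.14, FDR 0.776) and Rnf168 at 0.24 (SE 0.18, FDR 0.669).

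For the 6 classical end joining genes the median log2 fold change was 0.17, with no unadjusted P value below 0.05 (background 6.95% higher and 3.77% lower). This median was 0.064 without TopBP1cKO replicate 2, 0.061 without WT replicate 2 and 0.24 without TopBP1cKO replicate 1. The kinase gene Prkdc (DNA-PKcs) had 520 and 484 counts in WT EPs and 584 and 813 in the libraries labelled TopBP1cKO (log2 fold change 0.40, SE 0.18, FDR 0.490). Xrcc6, which encodes KU70, had 331 and 373 counts against 427 and 526 (log2 fold change 0.37, SE 0.16, FDR 0.467), both above both WT libraries. Without replicate 2 the values were 0.15 for Prkdc and 0.21 for Xrcc6. The ligation genes were level or lower: Lig4 stood at −0.02 (SE 0.24), Xrcc4 at −0.21 (SE 0.22) and Nhej1 at −0.32 (SE 0.35), and for the latter pair replicate 2 was the lowest library, with 132 counts of Xrcc4 against 168 to 176 in the others and 32 counts of Nhej1 against 48 to 52. Xrcc5, the gene of KU80, had only 8 and 2 counts in WT EPs and 18 and 11 in the libraries labelled TopBP1cKO (log2 fold change 1.17, SE 0.60, FDR 0.532). Its value was 2.03 without WT replicate 1 and 0.62 without WT replicate 2. KU80 pairs with KU70 in a heterodimer, and yet the level of Xrcc5 per kb of transcript in WT EPs was 0.14 CPM per kb, compared with 11.4 CPM per kb for Xrcc6. Of 5 Xrcc5 transcripts listed, 1 was counted, and how reads were assigned among symbols is not given in the sources used here.

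Of the alternative end joining genes, Polq had the largest fold change of the 46 when all libraries were used. It encodes DNA polymerase theta, which joins resected ends through short homologies. Polq had 68 and 60 counts in WT EPs (4.39 ± 0.59 CPM, SD, n = 2) and 103 and 408 in the libraries labelled TopBP1cKO (16.6 ± 13.9 CPM). The log2 fold change was 1.89 (SE 0.55, FDR 0.346), with 0.60 without replicate 2 and 2.55 without replicate 1. Without replicate 2 the largest value was that of Xrcc5 (1.45), and Blm, Rad51c, Xrcc2, Rad54b and Rad54l were also above Polq. The largest was Rad54b (2.47) without WT replicate 1 and Brca1 (1.97) without WT replicate 2. Parp1, the sensor of strand breaks and the most abundant of the 46 genes by CPM, had 1877 and 1924 counts against 2175 and 2610 (log2 fold change 0.26, SE 0.13, FDR 0.516). Its value was 0.13 without replicate 2.

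**Figure D2:**
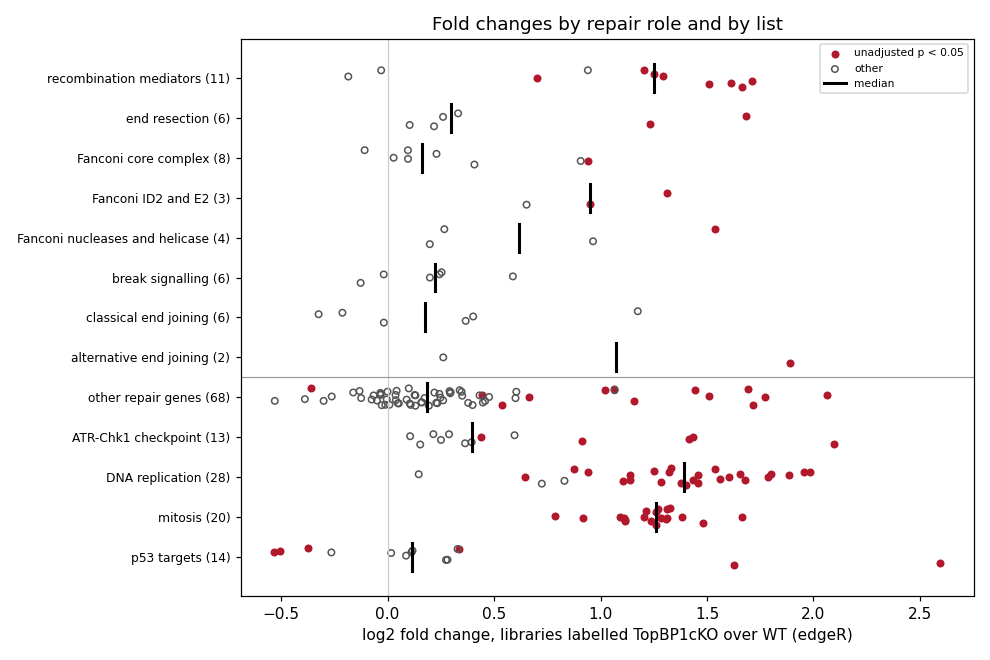
Log2 fold changes of single genes (points; red, unadjusted P value below 0.05), with the median of each role or list as a bar and the number of genes in parentheses. Recombination mediators had a median of 1.25 and classical end joining genes one of 0.17; the DNA replication and mitosis lists, which hold none of the 46, had medians of 1.39 and 1.26.

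Each library labelled TopBP1cKO was also set against the WT mean on its own, for the repair genes and for the lists they were compared with. The 28 DNA replication genes had a median log2 ratio to WT of 0.59 in replicate 1 and 1.91 in replicate 2, and the recombination mediators had 0.59 and 1.65, the closest values of any role. The 20 mitosis genes had 0.38 and 1.80. Break signalling genes had −0.01 and 0.44, and classical end joining genes 0.07 and 0.24. Summed over the 46 genes, CPM were 975 and 940 in WT EPs, 1019 in replicate 1 and 1388 in replicate 2, and the ratio of this sum to that of the replication genes was 1.54 and 1.46 in WT, 1.08 in replicate 1 and 0.665 in replicate 2. The repair genes as a sum were therefore not higher by the same factor as the replication genes. Abundant genes weigh most in such a sum, and Parp1 alone had a WT mean of 130 CPM. Sums in replicate 2 over the WT mean were 1.45-fold for the 46 genes and 3.27-fold for the replication genes. By role they were 2.19-fold for recombination mediators and 2.81-fold for the ID2 genes with Ube2t. They were 1.26-fold for break signalling and 1.30-fold for classical end joining. The ratio of the groups was not tested, and the replication and repair sums come from the same libraries.

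**Figure D3:**
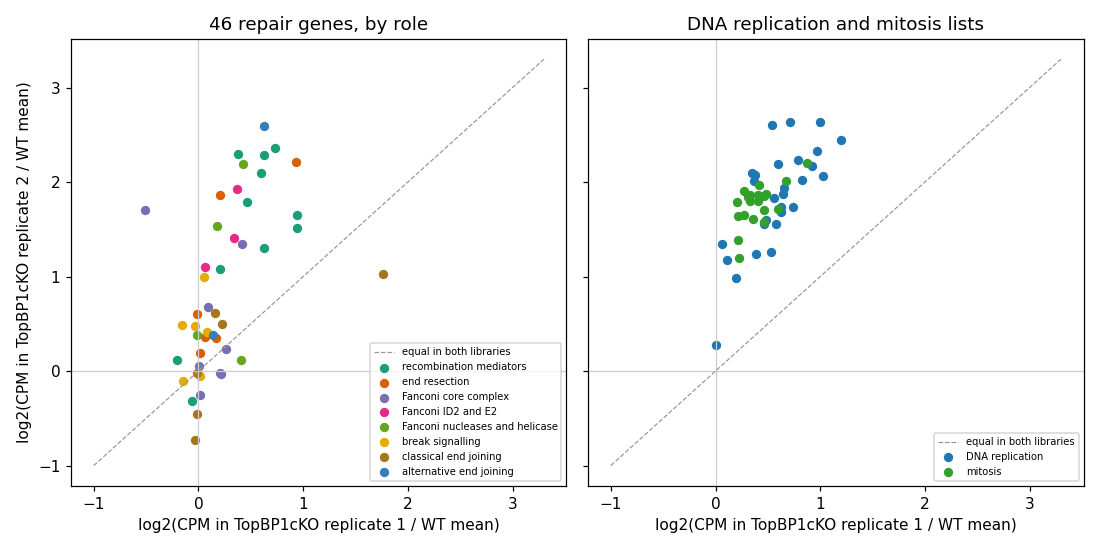
Log2 ratio of CPM to the WT mean in TopBP1cKO replicate 1 (x axis) and replicate 2 (y axis), for the 46 genes by role (left) and the DNA replication and mitosis lists (right); the dashed line marks equal values. Points above the line are higher in replicate 2, and 35 of the 46 repair genes lie there (48.8% of all genes tested); both axes share the WT mean.

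Other genes of these pathways, 68 in all, were listed for comparison. None passed FDR < 0.05 in edgeR or limma-voom (backgrounds 0.105%). The count was 25 without replicate 1 (background 20.5%), 1 in the Wald test (background 1.11%) and 4 in the likelihood ratio test (background 1.89%). In edgeR 12 were higher (background 6.95%) and 1 was lower (background 3.77%) at an unadjusted P value below 0.05, and the median log2 fold change was 0.18. Hrob, which recruits the MCM8–MCM9 helicase to recombination sites, had 14 and 13 counts in WT EPs and 40 and 92 in the libraries labelled TopBP1cKO (log2 fold change 2.06, SE 0.46, FDR 0.307), and Mcm8 had 41 and 58 against 75 and 214 (1.44, SE 0.46, FDR 0.353). Neither gene had any overlap between groups. Rpa2, a subunit of the single-strand binding protein RPA, stood at 1.02 (SE 0.26, FDR 0.307), the centromere and Fanconi factor Cenps at 1.69 (SE 0.41, FDR 0.307) and Zgrf1 at 1.51 (SE 0.50, FDR 0.361). Without replicate 2 the median of the 68 genes was 0.08, and the values were 1.38 for Hrob, 1.23 for Cenps, 0.59 for Rpa2, 0.52 for Mcm8 and 0.40 for Zgrf1. H2ax, the gene of the histone that is phosphorylated at breaks, had 620 and 780 counts against 855 and 1139 (log2 fold change 0.44, SE 0.17, FDR 0.417). Its value was 0.22 without replicate 2. On the lower side were Rnf169, a competitor of 53BP1 at ubiquitylated chromatin, with 1762 and 1720 counts against 1295 and 1557 (log2 fold change −0.36, SE 0.13, FDR 0.399), and the end joining polymerase genes Polm (−0.39, SE 0.18, FDR 0.490) and Poll (−0.53, SE 0.26, FDR 0.525). Faap20, Shld1 and Kat5 lay between −0.30 and −0.12. Without replicate 2 the values were −0.49 for Rnf169, −0.28 for Polm, −0.27 for Poll, 0.054 for Faap20, −0.24 for Shld1 and −0.090 for Kat5.

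Among 13 genes of the ATR–Chk1 checkpoint, all 13 had a positive log2 fold change (median 0.39, background 51.2%) and 5 had an unadjusted P value below 0.05 (background 6.95% higher). Without replicate 2 the median was 0.15, and Atr, the kinase itself, went from 0.29 to −0.022. Chek1 had 35 and 30 counts against 73 and 234 (log2 fold change 2.10, SE 0.51, FDR 0.307), and Tipin 160 and 211 against 348 and 697 (1.42, SE 0.31, FDR 0.307), with 1.05 and 0.84 for these without replicate 2. The most abundant genes of the list by CPM, Cdc25a and Timeless, stood at 0.44 (SE 0.14, FDR 0.360) and 0.60 (SE 0.26, FDR 0.467), or 0.29 and 0.10 without replicate 2. Targets of p53, which ATM and CHK2 activate after breaks, had values in both directions: 3 of 14 tested were higher (background 6.95%) and 3 lower (background 3.77%) at an unadjusted P value below 0.05, with a median of 0.11. Cdkn1a, the inhibitor p21, had 81 and 111 counts against 223 and 407 (log2 fold change 1.63, SE 0.30, FDR 0.237), and Phlda3 had 3 and 4 against 29 and 36 (2.60, SE 0.44, FDR 0.182). By contrast, Btg2 had 3679 and 4136 counts against 2953 and 2707 (−0.53, SE 0.12, FDR 0.307), and Pmaip1 (NOXA) stood at −0.51 (SE 0.14, FDR 0.337). The values of Cdkn1a and Phlda3 were 1.14 and 2.44 without replicate 2.

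In WT EPs, levels per kb of transcript spanned from 0.14 CPM per kb for Xrcc5 to 37.4 CPM per kb for Rad51d. Rad51d was followed by Parp1 (33.6), Rbbp8 (20.4), Fancl (16.5) and Rad50 (14.9), all in CPM per kb. The 15 genes with an unadjusted P value below 0.05 lay between 0.45 and 4.68 CPM per kb in WT EPs. The log2 fold changes of the 16 genes above that range ran from −0.21 to 0.37, and since the range is set by the 15 genes and the level was not tested against the change, this is a description. The WT libraries enter both the level and the fold change.

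**Figure D4:**
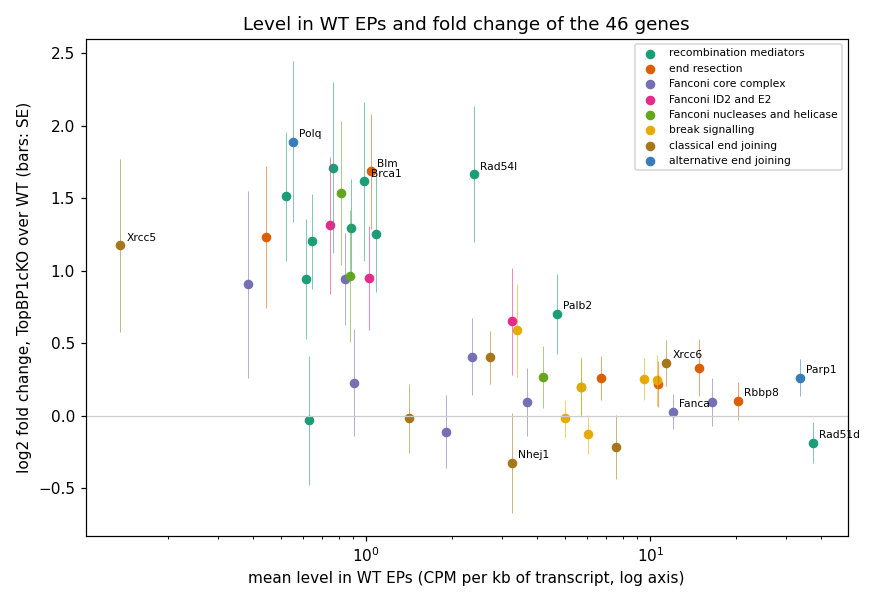
Mean level in WT EPs (CPM per kb of transcript, log axis) against the log2 fold change of the libraries labelled TopBP1cKO over WT, with SE bars, for the 46 genes by role. Polq, Rad54b, Blm, Rad54l and Brca1, at 0.55 to 2.40 CPM per kb, have the largest fold changes. Rad51d and Parp1, at 37.4 and 33.6 CPM per kb, lie near 0.

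Markers of other cells also differed between the libraries. The median log2 fold change of the 13 neutrophil markers was 1.39, with 5 of them at FDR < 0.05 (background 0.105%) and summed CPM of 1489 and 1234 in WT EPs, 3198 in replicate 1 and 2445 in replicate 2. The median log2 ratio to WT of these markers was 1.45 in replicate 1 and 1.49 in replicate 2, and 7 of the 13 were highest in replicate 2 (background 34.8%). Mpo was the most abundant marker by CPM, with 8464 and 6391 counts in WT EPs, 13311 in replicate 1 and 3014 in replicate 2. None of the 13 was at 0 in all libraries. Ltf (lactoferrin), which passed FDR < 0.05, had 1446 and 1474 counts against 4600 and 5315 (log2 fold change 1.69), and Ngp (1.48) and S100a8 (1.53) passed as well. The T cell markers (4 of 7 tested, most abundant Thy1) summed to 5.30 and 6.15 CPM in WT EPs and 17.5 and 7.57 in the libraries labelled TopBP1cKO, and the B cell markers (7 of 8 tested, most abundant Cd22) to 73.7, 68.1, 82.2 and 85.9 CPM. Sums for macrophages (28.8, 31.1, 21.6 and 24.9 CPM over 6 genes, most abundant Hmox1), plasmacytoid DCs (202, 208, 182 and 176 CPM over 7 genes, most abundant Tcf4) and erythroid cells (15.5, 12.7, 17.3 and 17.6 CPM over 4 genes, most abundant Hba-a1) are given in the same order. By CPM the most abundant genes of these lists were Cd22 (log2 fold change 0.24), Thy1 (1.18), Hmox1 (−0.63), Tcf4 (−0.33) and Hba-a1 (0.48). Without replicate 1 Thy1 stood at 0.42, and without replicate 2 Cd22 stood at 0.096. For B cells, Pax5 stood at 0.63 and Ms4a1 at −0.18. For T cells, Lck stood at 1.08 (0.23 without replicate 1) and Cd3g at 1.14. For macrophages, Vcam1 stood at −0.40 and C1qb at −1.67. Bst2 stood at −0.29 for plasmacytoid DCs, and Hba-a2 at −0.09 and Hbb-bs at 0.41 for erythroid cells. None of these genes, chosen by abundance or smallest P value, passed FDR < 0.05. Cox6a2, on the plasmacytoid DC list, was the exception: it had 0 and 3 counts in WT EPs and 183 and 168 in the libraries labelled TopBP1cKO (FDR 0.00762), against the direction of the sum of its list. The part of these cell types in the repair gene values was not tested.

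Single transcripts of these genes were less stable than the gene sums. The 46 genes had 339 transcripts in the tables, of which 193 had a count, and 38 genes had more than 1 counted transcript. In 8 genes no single transcript was counted in all 4 libraries. The most counted Brca1 transcript was at 0 in WT EPs, with 115 and 383 in the libraries labelled TopBP1cKO, while the gene as a whole had 71 and 120 WT counts. For Trp53bp1, the most counted of 23 transcripts had 221 and 206 counts in WT EPs, 0 in replicate 1 and 188 in replicate 2, although the gene sums differed little. Values are therefore given for gene sums.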

How the data were processed

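CD24+ EPs (4 libraries: 2 WT, 2 labelled TopBP1cKO) were profiled by bulk RNA-seq with the CORALL RNA-seq V2 kit. The authors deposited whole-number read counts per RefSeq transcript, without normalization. Their processing notes name fastp, STAR, Salmon and GATK and the build GRCm39, without roles, so how reads shared by transcripts were assigned is not known. Counts were summed over the 137259 transcript rows per gene symbol. Genes that passed filterByExpr (12393 of 19815 with a count) were compared with edgeR 4.0.16 (R 4.3.3; TMM, glmQLFit, glmQLFTest, group as the single term), and P values were adjusted after Benjamini and Hochberg across all tested genes (FDR < 0.05). SE was taken as the absolute log2 fold change divided by √F. The common dispersion was 0.0230 (biological coefficient of variation 15.2%). The smallest P value of an exact permutation test here is 0.333, so P values come from the model across genes. Placeholder rows held 3.03% to 4.86% of counts. No pair of libraries was a duplicate (chi-square over its degrees of freedom at or above 11.9). CPM per kb used the median length of GENCODE M21 coding transcripts linked to RefSeq.

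The members and lists were chosen with earlier results of these data known. Values were given for each gene of the 46, for Topbp1, for the 6 other repair genes with the smallest P value in each direction and H2ax, except that 1 gene is not reported here, and for the 2 most abundant and the 2 with the smallest P value of the other lists. Abundance was ranked by CPM. Itgax, Atr and the counts of Trp53bp1 and Brca1 transcripts were chosen after their values were seen. Alternatives were upper quartile scaling, size factors and the Wald test of DESeq2 1.42.0, limma-voom (limma 3.58.1), the likelihood ratio test of edgeR, no filter, at least 10 counts in every library, curated accessions only, a replicate block and leaving out each library.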

Additional observations from a re-analysis of the deposited data

How the results depend on the processing

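The count of the 46 genes at FDR < 0.05 was 0 with limma-voom, with both other normalizations, with both other filters and with curated accessions. It was 4 with the DESeq2 Wald test (Blm, Brca2, Polq and Rad54l; 137 of all genes, 1.11%) and 4 with the edgeR likelihood ratio test (Blm, Polq, Rad51c and Rad54l; 234 of all genes, 1.89%), and these tests called 1 and 4 of the other repair genes. Curated accessions left 42 of the 46 genes, 6 of them higher at an unadjusted P value below 0.05 (background 4.28%), and 0 calls among all genes; limma-voom had 8 such genes (background 5.93%). Curated accessions also moved the log2 fold change of Palb2 to 0.082, Exo1 to 0.53, Brip1 to 0.83, Xrcc3 to 1.95 and Fancc to −1.06, and left Brca1 with 0 WT counts, so that no fold is given. Replicate numbers did not pair the libraries (correlation of deviations −0.0147 across genes); with a replicate block, 504 of all genes (4.07%), 13 of the 46 and 7 of the other repair genes passed FDR < 0.05.

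With each library left out, all genes called ran from 1 (without WT replicate 2) to 2625 (without TopBP1cKO replicate 1), the 46 genes from 0 to 27, other repair genes from 0 to 25, genes higher at an unadjusted P value below 0.05 from 6 (without TopBP1cKO replicate 2, background 6.08%) to 31 (without TopBP1cKO replicate 1, 16.6%) and genes lower from 0 to 2 (without TopBP1cKO replicate 1, 15.9%). Without WT replicate 2 there were 9 higher (3.36%). The median log2 fold change ran from 0.16 to 0.61, and genes with non-overlapping groups from 29 to 36 higher (background at most 41.3% in these fits) and from 3 to 7 lower (background at least 32.7%), since a lone library falls outside a pair more often.

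Of the 98 genes that the naming rule gives (Itgax and Atr are outside it), 80 kept their sign under every alternative run. Leaving out 1 library turned the sign of 16, whose log2 fold changes then ran as follows. Without TopBP1cKO replicate 2 at 1 end and replicate 1 at the other, the range was −0.021 to 0.61 for Rad50, −0.0073 to 0.053 for Fanca, −0.45 to 1.59 for Fancb, −0.17 to 0.48 for Atm, −0.039 to 0.47 for Rnf168, 0.0077 to −0.24 for Fancc, 0.010 to −0.058 for Trp53bp1, 0.054 to −0.68 for Faap20, 0.20 to −0.031 for Fance, −0.60 to 0.11 for Topbp1 and 0.77 to −1.39 for Mpo (−0.18 without WT replicate 2). Without WT replicate 2 at 1 end and WT replicate 1 at the other, it was −0.33 to 0.32 for Rad51b, −0.057 to 0.25 for Fancl, −0.17 to 0.14 for Lig4 and −0.43 to 0.33 for Hba-a2; without TopBP1cKO replicate 1 these were 0.10 for Rad51b, −0.026 for Fancl and 0.010 for Hba-a2. Slx4 ran from −0.024 (without TopBP1cKO replicate 2) to 0.39 (without WT replicate 1). Curated accessions turned Slx4 (−0.11), Mus81 (−0.028), Trp53bp1 (0.044) and Tcf4 (0.29), limma-voom turned Rad51b (0.0025) and Mpo (−0.29), and the replicate block turned Mpo (−0.28). The cause was not tested.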
